A study of Mus musculus with 4 samples.

Results

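Chromosome 13 of the mouse carried 3710 confident variant sites in the exomes of 4 leukaemia samples, of 58991 sites in all (6.29%). A site is a position with 1 changed allele. It was taken as confident in a sample when SpeedSeq and VarScan2 gave the same position and alleles, each with a depth of at least 10 reads, at least 3 variant reads and a variant allele fraction of at least 0.1 (variant reads over depth), and when SpeedSeq gave it a quality score of at least 20. The sites comprised 3274 single-nucleotide variants (SNVs) and 436 insertions or deletions (indels). The members were thus chosen by measured values (depth, variant reads, allele fraction and quality), and counts and fractions of them are given as a description, with no test.

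The DNA came from bone marrow cells bearing c-Kit, a receptor tyrosine kinase of blood stem and progenitor cells, of moribund leukaemic mice labelled E2-KO on a C57BL/6 background. The series title explains this genotype as the Nras-G12D allele together with a knockout of Ezh2, the histone methyltransferase of the Polycomb machinery. All 4 samples share it, so there is no control group, no normal tissue of the same mouse was analysed here, and no variant is called acquired. The labels name no Cre driver and do not say that the samples are separate mice. They are called replicates 1 to 4 in listed order. A p-value here concerns the mean, over the listed samples, of the difference between chromosome 13 and the other autosomes of a sample. It gives only how often random signs of these differences yield a mean at least as large in size. Whether the samples vary through mice or handling is not known. DNA holds no expression markers, so the c-Kit label could not be checked.

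The mouse reference sequence comes from one C57BL/6 line, and a variant against it is any base at which the sequenced chromosome differs. Chromosome segments derived from another strain or substrain carry many such differences side by side and are inherited as haplotypes, whose ends are set by recombination. Within such a segment, a variant on one of both chromosome copies is read in about as many reads as the reference base, and a variant on both copies in nearly all reads. Chromosome 13 of the mouse bears a large cluster of replication-dependent histone genes, together with arrays of olfactory receptors, pheromone receptors of the vomeronasal type 1 family, serpins and prolactins.

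The runs of variants reached into promoters, and 4 examples show the sequence around them. Each is the RefSeq sequence of the 250 bases upstream of a transcription start on GRCm38.p6 (mm10 coordinates), written 5′ to 3′ on the strand of the gene. Capitals mark the bases changed or deleted in at least 1 sample. The 4 were picked after their values had been seen, to show unlike patterns of samples and levels.
H4c2 promoter: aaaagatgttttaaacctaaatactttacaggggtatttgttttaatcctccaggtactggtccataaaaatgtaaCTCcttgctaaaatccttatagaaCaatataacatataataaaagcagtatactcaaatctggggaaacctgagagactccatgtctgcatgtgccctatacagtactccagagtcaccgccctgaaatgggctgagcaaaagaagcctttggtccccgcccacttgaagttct
Gpx6 promoter: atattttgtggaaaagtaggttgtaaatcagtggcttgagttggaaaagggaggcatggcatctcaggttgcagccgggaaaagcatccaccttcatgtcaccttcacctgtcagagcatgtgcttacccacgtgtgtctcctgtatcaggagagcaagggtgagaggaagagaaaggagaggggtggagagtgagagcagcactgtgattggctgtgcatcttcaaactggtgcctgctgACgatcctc
Akr1c12 promoter: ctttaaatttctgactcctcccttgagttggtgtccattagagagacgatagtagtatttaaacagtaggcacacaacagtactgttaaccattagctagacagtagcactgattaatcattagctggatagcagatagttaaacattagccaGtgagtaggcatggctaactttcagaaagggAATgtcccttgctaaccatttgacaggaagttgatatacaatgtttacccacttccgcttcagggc
Dmgdh promoter: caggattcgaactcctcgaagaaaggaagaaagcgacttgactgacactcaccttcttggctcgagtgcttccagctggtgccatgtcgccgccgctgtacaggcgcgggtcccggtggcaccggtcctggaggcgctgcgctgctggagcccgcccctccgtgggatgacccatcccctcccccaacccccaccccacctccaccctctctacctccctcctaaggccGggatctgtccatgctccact

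H4c2, which encodes histone H4, lies on the plus strand and the printed stretch is chr13:23756687-23756936. Its 3 capitals CTC are a deletion with allele fractions of 0.375, 0.388 and 1 in replicates 1, 3 and 4. The single capital C is the SNV C23756787T (reference base, position along the plus strand of chromosome 13, variant base), at fractions of 0.417, 0.390 and 0.990 in the same samples. Replicate 4 thus had nearly all reads changed at both positions where replicates 1 and 3 had fewer than 1 read in 2, and replicate 2 had no confident call at either.

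Gpx6, a glutathione peroxidase gene, showed the same order of samples. Its stretch is chr13:21311953-21312202 on the plus strand, and the adjacent SNVs A21312194G and C21312195G lie 9 and 8 bases before the start. Replicates 1, 3 and 4 had fractions of 0.392, 0.354 and 1 at either base, at depths of 51, 65 and 71. Neighbouring bases share their reads, so both count as 1 observation.

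Akr1c12 encodes an aldo-keto reductase and lies on the minus strand (chr13:4279400-4279649). The lone capital G is the SNV C4279496G of replicate 2, and AAT marks the 3 neighbouring SNVs A4279463T, T4279464A and T4279465A, named by the plus strand, which were confident in replicate 1 at a fraction of 0.571 (depth 21) and in replicate 2 at 0.361 (depth 36). Here replicates 3 and 4 were the samples without a confident call. Dmgdh, the mitochondrial dimethylglycine dehydrogenase, shares its start region with Bhmt2 on the opposite strand (chr13:93674186-93674435, plus strand). Its SNV G93674415C had fractions of 0.455, 0.533 and 0.429 in replicates 1, 3 and 4, at depths of 11, 15 and 14. As in Akr1c12, no sample had the variant base in nearly all reads.

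In all, 34 of 725 protein-coding genes with a RefSeq start window on chromosome 13 held a variant between 250 bases before and 50 bases after a start. The RefSeq base equalled the reference base of the files at 84 of 84 pairs of an SNV and a window. None of the 32 annotated miRNA hairpins held a variant. No share over all chromosomes is given for start windows or hairpins, so these counts show nothing particular to chromosome 13.

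The longer deletions followed the same sample patterns as the SNVs around them. Of the 14 deletions of at least 9 bases confident in 2 or more samples, 4 outside simple repeats, picked after their values had been seen, are shown for their unlike sample patterns. Each is the reference sequence on the plus strand, with the base before the deletion in lower case and the deleted bases in capitals.
Hecw1: gTTCCTAGGAAT
Ssr1: gTTCTCCAAGTTTGT
Ptpdc1: aCTTCAGAAGT
Mctp1: cTCCTCCGCA

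The 14 bases lost in Ssr1, which encodes a subunit of the translocon-associated protein complex (chr13:37983352-37983366), were missing from 90 of 91, 35 of 150 and 60 of 136 reads of replicates 1, 3 and 4, fractions of 0.989, 0.233 and 0.441. The 11 bases lost in the ubiquitin ligase gene Hecw1 (chr13:14248475-14248486) had fractions of 0.523 in replicate 1 and 0.310 in replicate 3. The 10 bases lost in the phosphatase gene Ptpdc1 (chr13:48586921-48586931) had fractions of 0.446, 0.415 and 0.436 in replicates 1, 2 and 4. The 9 bases lost in Mctp1, a membrane protein with C2 domains (chr13:77029996-77030005), had fractions of 0.382, 0.389 and 0.419 in replicates 1, 3 and 4. Ssr1 was the one of these 4 in which the samples lay at both ends of the scale. Whether any of them lies in an exon was not determined, since the gene table gives gene starts and ends only.

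Of the 436 indel sites, 231 were deletions and 205 insertions. Single bases made up 250 of them (57.3%), and lengths divisible by 3 made up 56 (12.8%). The longest deletion removed 21 bases and the longest insertion added 13.

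Replicate 2 had far fewer variants on this chromosome than the others. The SNV counts of replicates 1 to 4 were 2597, 714, 2503 and 2308 (mean 2031 ± 886, SD, n = 4). With indels included, the totals were 2848, 837, 2757 and 2574. Replicate 2 had 123 indels, against a mean over the 4 samples of 223.5 ± 67.3 (SD, n = 4). The median depth was also lowest in replicate 2, with 57, 48, 60 and 57 reads in replicates 1 to 4, and its part in the counts was not tested. The SNV count of replicate 2 was 28.9% of the mean of the other 3 samples, the lowest ratio of the 19 autosomes in that sample, and the next lowest was 56.3%. Such a shortage in 1 sample also occurred on other autosomes. By the same ratio, replicate 4 had 3.28% on chromosome 9 and 30.3% on chromosome 7, and replicate 3 had 29.9% on chromosome 17.

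The share of SNVs at a high allele fraction differed more than the counts. An SNV counts as upper-range where its fraction reaches 0.65, and as lower-range below that. Replicates 1 to 4 had upper-range shares of 17.1% (15.7 to 18.6, 95% exact Clopper-Pearson interval), 47.3% (43.6 to 51.1), 2.88% (2.26 to 3.61) and 33.0% (31.1 to 35.0). The mean was 25.1% ± 19.3 (SD, n = 4). The intervals cover counting error only, because reads are not independent molecules and SNVs of a run are inherited together. Of the indels, 12.7%, 27.6%, 0% and 28.2% were upper-range, again lowest in replicate 3.

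Replicate 3 also had a lower level within the lower range. At a depth of at least 30 its lower-range SNVs had a median fraction of 0.378, against 0.455, 0.453 and 0.457 in replicates 1, 2 and 4. The value on the other autosomes of replicate 3 was 0.376, so chromosome 13 was close to the rest of that sample. The upper range was not: its median in replicate 3 was 0.991 on chromosome 13 (24 SNVs) and 0.801 on the other autosomes (5814 SNVs). At any depth replicate 3 had 72 upper-range SNVs on chromosome 13. Of these, 23 lay among 26 SNVs near the start of the chromosome, whose median mapping quality was 29.3. None of the clusters of variants described below was upper-range in replicate 3, so its 0.991 does not stand for a whole segment. In replicates 1, 2 and 4 both medians were 1.

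Most sites were shared by 3 samples, and replicate 2 was usually the one that lacked them. Of the 3710 sites, 771 were confident in 1 sample, 664 in 2, 2183 in 3 (58.8%) and 92 in all 4 (2.48%). Sites of replicates 1, 3 and 4 together numbered 1684 (45.4%), which is more than the next pattern, replicates 1, 2 and 3, with 246. By pairs, replicates 1 and 3 shared 68.9% of the SNV sites found in either, 3 and 4 shared 63.6%, and 1 and 4 shared 63.3%. Pairs with replicate 2 shared 18.5% with replicate 1, 15.3% with replicate 3 and 11.8% with replicate 4.

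**Figure D1:**
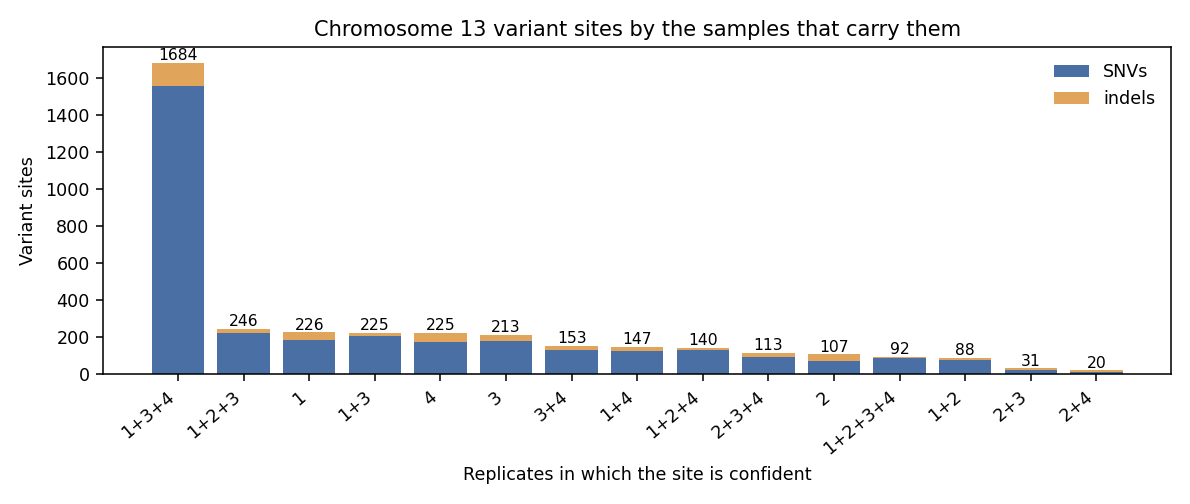
Bars give the number of chromosome 13 variant sites (vertical axis, SNVs in blue and indels in orange) for each combination of replicates in which a site was confident (horizontal axis). The combination of replicates 1, 3 and 4 holds 1684 sites, and the combination of all 4 holds 92.

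Sites confident in a single sample were often not absent elsewhere. Of the 226 such sites of replicate 1, 168 were listed at their position in another sample by a caller at some quality. For replicates 2, 3 and 4 the counts were 76 of 107, 150 of 213 and 157 of 225. Sites listed in no other sample numbered 58, 31, 63 and 68.

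The 87 SNVs confident in all 4 samples were of a different kind from those in 3. They were upper-range in all 4 samples at 37 sites, lower-range in all 4 at 42 and divided at 8. The share with a mean mapping quality under 50 was 75.9% in replicates 1, 2 and 4 and 77.0% in replicate 3, whereas among SNVs in 3 samples it was 10.6%, 10.5%, 9.42% and 9.70% in replicates 1 to 4. Mapping quality was not used to choose sites. Whether reads of near copies elsewhere took part was not tested. The 2 SNVs of Prl2c3, a placental prolactin-family gene named here after its values were seen, are examples: the median depth was 881.5, 964.5, 884 and 684 reads and the mean mapping quality 33.3, 32.8, 33.3 and 31.6.

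The variants lay in blocks. A block is a run of confident variants of 1 sample with no gap above 1 Mb and at least 20 variants. Replicates 1 to 4 had 10, 7, 11 and 11 blocks, which spanned 43.7, 10.6, 46.3 and 43.9 Mb (mean 36.1 Mb ± 17.1, SD, n = 4). They held 97.2%, 92.6%, 97.6% and 97.6% of the variants. The longest single blocks measured 13.4, 2.79, 13.2 and 12.1 Mb. In this assay an edge is the outermost captured variant, so the true end of a segment can lie anywhere up to the next captured position.

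Several edges were the same to the base in 3 samples. The start at 3009345 and the ends at 4834228 and 9878477, the latter in the muscarinic receptor gene Chrm3, were shared by replicates 1, 2 and 4. The start at 11560470, in the cardiac calcium channel gene Ryr2, was shared by replicates 1, 2 and 3. The start at 46560578, in Cap2, was shared by replicates 2, 3 and 4. The start at 72630777, in Irx2, and the end at 38220794, in Snrnp48, were shared by replicates 1, 3 and 4. Each replicate was thus missing from at least 1 of these common edges, and no edge was common to all 4. The SNV at 72630777 was itself confident in all 4 samples at 0.994 or above, but replicate 2 had no block there.

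Other edges differed between samples within 1 stretch. Replicate 2 had a block from 11560470 to 14346891, ending in Hecw1, while the blocks of replicates 1 and 3 with the same start ran on to 24943743, in Gpld1, and 24756576, in Gmnn. Replicate 4 had no block between 9878477 and 16213041, and its next one ended at 24756576 as in replicate 3. The end in Gmnn was a single indel of low fraction: this site had fractions of 0.257, 0.243 and 0.239 in replicates 1, 3 and 4. Such an edge rests on 1 call.

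To compare the samples over the same stretches, all sites of the 4 samples were joined into clusters with no gap above 0.5 Mb and at least 20 sites, a choice made after the values had been seen. The 20 clusters held 3558 sites (95.9%) over 31.3 Mb. Within each, a sample was called low in variants if it had under 20% of the cluster's SNVs, upper-range if at least 80% of its SNVs were upper-range, lower-range if at most 20% were, and mixed otherwise. Replicate 2 was low in variants in 13 clusters, replicate 4 in 3, and replicates 1 and 3 in 2 each. Replicates 1 to 4 had 5, 1, 0 and 6 upper-range clusters. Replicate 3 was lower-range in 17 of the 20, with cluster medians from 0.218 to 0.423.

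**Figure D2:**
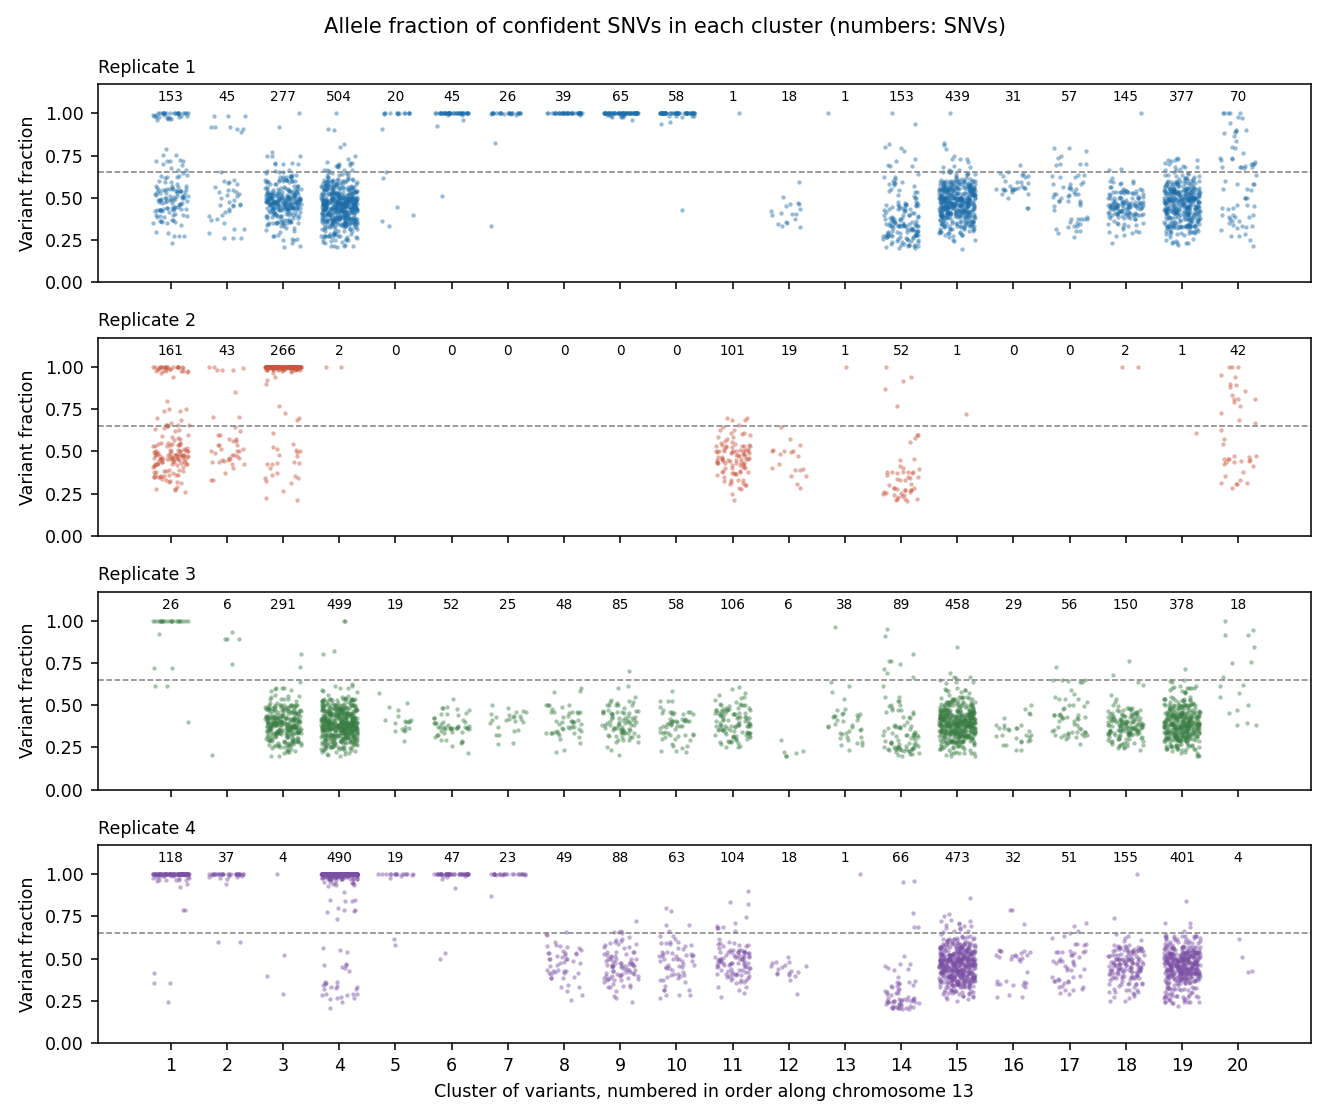
Each point is a confident SNV; the vertical axis is its variant allele fraction (no unit) and the horizontal axis the number of its cluster in order along chromosome 13, with 1 panel per replicate and the number of SNVs above each column. The dashed line marks 0.65. Points near 1 fill cluster 3 in replicate 2, clusters 6 to 10 in replicate 1 and clusters 1, 2 and 4 to 7 in replicate 4, while replicate 3 stays under the line from cluster 3 to cluster 13 with few exceptions.

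Clusters 1 and 2, at the start of the chromosome, were upper-range in replicate 4 and at the lower range over most of their length in replicates 1 and 2. Cluster 1 (3009345 to 4834228) holds the aldo-keto reductase genes Akr1c12 (23 sites) and Akr1c21 (22 sites), and cluster 2 (9011723 to 9878477) holds Dip2c (26 sites) and the histone reader gene Zmynd11 (12 sites). In cluster 1 replicate 4 had 118 SNVs at a median of 1, replicate 1 had 153 at 0.535 and replicate 2 had 161 at 0.489. Of the 114 upper-range SNVs of replicate 4, 78 were lower-range in replicate 1 and 80 in replicate 2. Replicate 3 had 26 SNVs there, all between 3373007 and 3373662, and no SNV from 3373662 to 9011788, a stretch in which the others had 122, 129 and 88. Its 26 SNVs had a median of 1 and a median mapping quality of 29.3. Replicates 1 and 2 also had a high run up to 3373681: 86.8% of the 38 SNVs of replicate 1 from 3299485 and 97.2% of the 36 of replicate 2 from 3187759 were upper-range. Of the 122 SNVs of replicate 2 after it, 7.38% were. In replicate 1 another 11 SNVs, from 3374236 to 3408611, were 72.7% upper-range, and of the 98 from 3556297 on, 5.10% were.

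Akr1c12 and Zmynd11 showed the contrast between replicate 4 and the first pair at every called site. In Akr1c12 the fractions had medians of 0.487 (21 sites) and 0.474 (22 sites) in replicates 1 and 2, none upper-range. In replicate 4 the median was 1 and all 15 sites were upper-range. Replicate 3 had no site. In Zmynd11 the medians were 0.457, 0.5 and 1 in replicates 1, 2 and 4, again with no site in replicate 3.

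Cluster 3 (11560470 to 14866011) was upper-range in replicate 2 and nearly without variants in replicate 4. It holds Ryr2 (92 sites), Lyst, the lysosomal trafficking regulator (65 sites), Heatr1, a factor of ribosome production (56 sites), Ero1b, an oxidase of the endoplasmic reticulum (41 sites), and Nid1, which encodes a basement membrane protein (27 sites). Replicate 2 had 266 SNVs at a median of 1, with 241 upper-range (90.6%). Replicate 1 had 277 at a median of 0.478 and replicate 3 had 291 at 0.390, whereas replicate 4 had 4. Of the 241 upper-range SNVs of replicate 2, 202 were lower-range in replicate 1 and 208 in replicate 3. The same alleles were thus read in nearly all reads of 1 sample and in a smaller part of the reads of 2 others.

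In Ryr2, replicate 2 had 67 sites at a median of 1, 65 of them upper-range. Replicates 1 and 3 had 77 and 79 sites at medians of 0.493 and 0.393, with 0 and 1 upper-range, and replicate 4 had none. In Lyst, all 51 sites of replicate 2 were upper-range, the 54 sites of replicate 1 had a median of 0.475 and the 54 of replicate 3 of 0.392. In Lyst the values of replicate 2 thus all lay above 0.65, where the other samples had their medians below 0.5. The 25 lower-range SNVs of replicate 2 inside cluster 3 had a median mapping quality of 35 and a depth of 90 reads, against 60 and 54 for the 241 upper-range ones. A run of 24 SNVs of replicate 2 from 12867632 to 13350460 had a median of 0.433.

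Cluster 4 (16976034 to 24025951) was the longest, with 696 sites over 7.05 Mb and 144 protein-coding genes, 58 of them with a site. Here replicate 4 was upper-range (490 SNVs, median 1, 93.7% upper-range), replicate 1 lower-range (504 SNVs, median 0.458), replicate 3 lower-range (499 SNVs, median 0.388) and replicate 2 nearly empty (2 SNVs). Of the 459 upper-range SNVs of replicate 4, 375 were lower-range in replicate 1 and 379 in replicate 3. The 31 lower-range SNVs of replicate 4 had a median mapping quality of 29.7 at 193 reads, against 60 at 61 reads for the upper-range ones.

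Replicates 1 and 3 passed from cluster 3 into cluster 4 without a change of level. In replicate 1 a single block covered both, with 787 SNVs at a median of 0.467 and 4.70% upper-range. In replicate 3 a single block held 795 SNVs at 0.389 and 0.755% upper-range. Between the same clusters replicate 2 went from nearly all reads to 2 SNVs, and replicate 4 from almost no variants to nearly all reads.

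Among the leading genes of cluster 4, Aoah, an enzyme that inactivates bacterial lipopolysaccharide, had 47, 50 and 37 sites in replicates 1, 3 and 4, at medians of 0.467, 0.398 and 1. Elmo1, an activator of Rac signalling, had 41 sites at 0.467, 44 at 0.4 and 29 at 1. Neither had a site in replicate 2. Olfr1362, an olfactory receptor gene, had the highest density of sites among genes with at least 10, at 10.2 sites per kb of gene body. Its 10 SNVs were confident in replicates 1, 3 and 4, at medians of 0.413, 0.361 and 1. Zkscan4, a zinc finger gene with 17 sites, had 2.55 per kb, at medians of 0.485, 0.440 and 1.

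The histone genes of this chromosome lie in cluster 4 where they held a site. Of 56 histone genes, 17 held 49 sites (30.4% of the genes, close to the 33.7% of all protein-coding genes of the chromosome). Replicate 2 had none of the 49, replicate 1 had 37 and replicate 3 had 36, none upper-range, and replicate 4 had 47, of which 46 were upper-range. H3c1, a histone H3 gene, had the most sites (6). Histone genes are near copies of each other, and some of these sites had mean mapping qualities under 50, such as a median of 43.6, 46.1 and 45.7 in replicates 1, 3 and 4 for the 4 sites of H4c3. Whether reads were exchanged between copies was not tested.

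Clusters 5 to 10 held the point at which replicate 4 changed level. Replicate 3 was lower-range in all 6, with medians from 0.368 to 0.417, and replicate 2 had no SNV in any of them. Cluster 5 (30817878 to 32234321) was mixed in replicate 1: the exocyst gene Exoc2 at its start had 4 sites at a median of 0.490, 1 of them upper-range, whereas Gmds, a gene of fucose synthesis, had 16 sites, all upper-range. From cluster 6 to cluster 10 replicate 1 was upper-range, at 97.8%, 96.2%, 100%, 100% and 98.3% of its SNVs. Replicate 4 was upper-range in clusters 5, 6 and 7 and lower-range in clusters 8, 9 and 10.

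The last upper-range SNV of replicate 4 before the change lies at 34990272, in Eci2, an enoyl-CoA isomerase gene, and the first SNV after it at 35856892, in Cdyl, a chromodomain gene. The distance between them is 0.867 Mb. The 89 SNVs of its block before the change had a median of 1, with 95.5% upper-range, and the 139 after it had a median of 0.464, with 4.32% upper-range. Over the same stretch replicate 1 stayed at 1: the 34 sites of Rpp40, a subunit of ribonuclease P and the leading gene of cluster 8, included 24 in replicate 1, all upper-range, 28 in replicate 3 at a median of 0.353 and 30 in replicate 4 at 0.427. Of the 39 SNVs of replicate 1 in cluster 8, 37 were lower-range in replicate 4 and 37 in replicate 3.

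**Figure D3:**
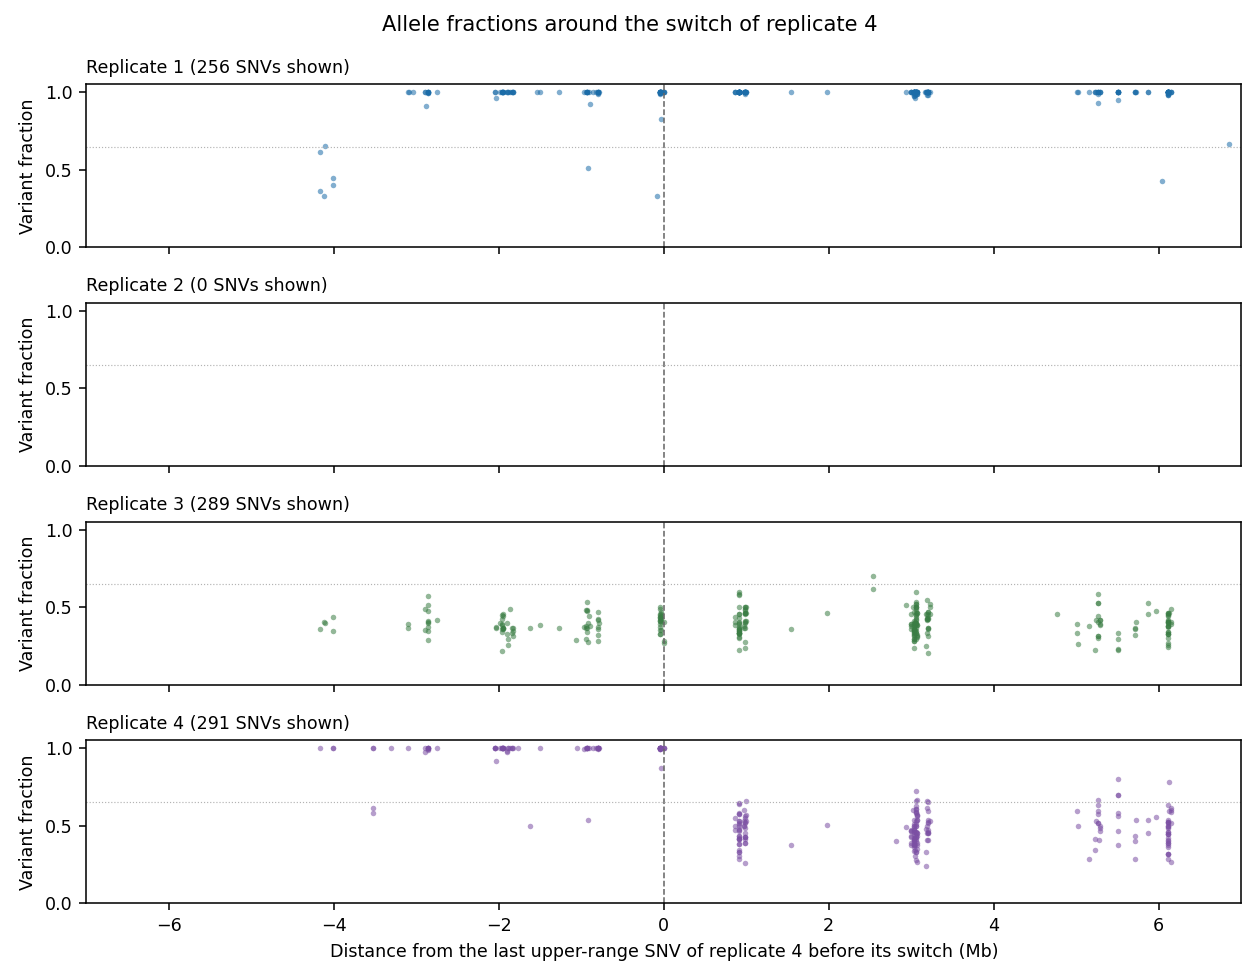
Points are confident SNVs, with the variant allele fraction (no unit) against the distance in Mb from the last upper-range SNV of replicate 4 before its change of level, in 1 panel per replicate. Replicate 4 drops from a median of 1 to 0.464 across the dashed line, replicate 1 stays near 1 on both sides of it after its first SNVs, replicate 3 stays in the lower range and replicate 2 has no SNV.

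Gcm2, Riok1 and Dsp also lay after this change. Gcm2, a transcription factor of the parathyroid gland, had 3.12 sites per kb. Its 26, 27 and 29 sites in replicates 1, 3 and 4 had medians of 1, 0.378 and 0.450. Riok1, a kinase of small ribosomal subunit maturation, had 2.21 sites per kb and medians of 1, 0.402 and 0.460 in the same samples. Dsp, which encodes desmoplakin of cell junctions, had 21 sites in each of these samples, at 1, 0.424 and 0.474. In these 3 genes replicate 1 lay apart from replicates 3 and 4, whose medians differed by less than 0.1.

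The serpin genes, which encode protease inhibitors, lie before the change, where replicates 1 and 4 were both upper-range. Of 16 serpin genes, 9 held 31 sites (56.3% of the genes, beside 33.7% of all genes of the chromosome), all in cluster 6 (32847518 to 34204095). Replicates 1 and 4 had 20 and 22 of these sites, 18 and 19 of them upper-range, and replicate 3 had 27, none upper-range. Serpinb9b, of the granzyme B inhibitor group, had 13 sites, with medians of 1, 0.366 and 1 in replicates 1, 3 and 4. Replicate 2 had no site in any serpin gene.

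In cluster 11 (46560578 to 47244222) replicate 1 was the sample without variants. It had 1 SNV of 118, while replicates 2, 3 and 4 had 101, 106 and 104, at medians of 0.464, 0.395 and 0.491. All 3 were lower-range. The cluster holds the kinesin gene Kif13a (37 sites), Tpmt, which inactivates thiopurine drugs (19 sites), the histone demethylase gene Kdm1b (18 sites), the chromatin protein gene Dek (7 sites), and Nup153, of the nuclear pore (6 sites). In Tpmt, replicates 2, 3 and 4 had 18, 19 and 18 sites at medians of 0.441, 0.353 and 0.423, and replicate 1 had none. In Dek the numbers were 7, 7 and 6, at medians of 0.483, 0.409 and 0.493.

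Ptpdc1 made up cluster 12 (48514697 to 48592623) and was lower-range in all 4 samples, but not at equal levels. Replicate 1 had 18 SNVs in the gene from 0.327 to 0.591 (median 0.407), replicate 2 had 18 from 0.286 to 0.643 (median 0.480) and replicate 4 had 18 from 0.293 to 0.509 (median 0.434). Replicate 3 had 6, from 0.2 to 0.291, with a median of 0.218 at a depth of 128 reads. The 6 values reach the lowest fraction that both callers list, which is 0.2 here, and SNVs below it would not be listed. Mapping quality was 60 in each sample.

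Cluster 13 (52835402 to 53472633) belonged to replicate 3. It had 38 SNVs there at a median of 0.385, and each other replicate had 1 of them, at a fraction of 1. The genes are Auh, an RNA-binding enoyl-CoA hydratase, and Sptlc1, a subunit of serine palmitoyltransferase, with 13 sites each, at medians of 0.388 and 0.371, and none in the other samples. The other genes of the cluster with sites were Msx2 (6), Ror2 (4) and Nfil3 (2).

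Cluster 14 (65340635 to 66874772) was lower-range in all 4 samples at low mapping quality, with medians of 31.4, 35.2, 34.3 and 32.3. The SNV counts were 153, 52, 89 and 66 and the median fractions 0.355, 0.336, 0.325 and 0.266. Its leading gene is 2410141K09Rik (22 sites), beside Zfp640 (3 sites), a zinc finger gene. Whether near copies take part was not tested. Cluster 20 (119455809 to 119617404), nearly all in Tmem267, was mixed in replicates 1, 2 and 3, at 45.7%, 42.9% and 44.4% upper-range, and low in variants in replicate 4. It had median mapping qualities of 34.6, 36.7, 51.2 and 53.8 and SNV counts of 70, 42, 18 and 4 at depths of 20, 16, 13 and 199 reads. Of the 77 sites of Tmem267, 39 were found in 1 sample.

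Clusters 15 to 19 separated replicate 2 from the rest. In all 5, replicates 1, 3 and 4 were lower-range and replicate 2 had at most 2 SNVs. Cluster 15 (74305492 to 78273350) had 439, 458 and 473 SNVs in replicates 1, 3 and 4, at medians of 0.474, 0.393 and 0.469. Cluster 18 (91797137 to 93880689) had 145, 150 and 155 at 0.455, 0.379 and 0.464, and cluster 19 (95421216 to 98789553) had 377, 378 and 401 at 0.475, 0.385 and 0.462. Clusters 16 and 17, with 36 and 62 sites, hold no protein-coding gene.

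The 3 samples carried nearly the same alleles in these clusters. In cluster 18, 144 of the 145 SNVs of replicate 1 were also confident in replicate 4 and 138 in replicate 3. In cluster 19, 356 of 377 were found in replicate 4 and 340 in replicate 3. Replicate 2 had no SNV at all between 77438995 and 93063579, a gap of 15.6 Mb in which the others had 180, 180 and 184. Its longest gap, from 18239483 to 44869614, spanned 26.6 Mb, in which the others had 733, 758 and 756.

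Sites missing from replicate 2 were nearly all absent from its lists at any quality. In the 13 clusters where it was low in variants, it listed 11 of the 2223 SNV sites (0.495%), against 87.5% of the sites in its other clusters. Its callers did report on those stretches, with 469 calls of some quality, 47 of them at a depth of 10 or more, and 12 confident indels. The lists give no depth at unchanged positions, so the absence of a variant and the absence of reads cannot be told apart at a single site.

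**Figure D4:**
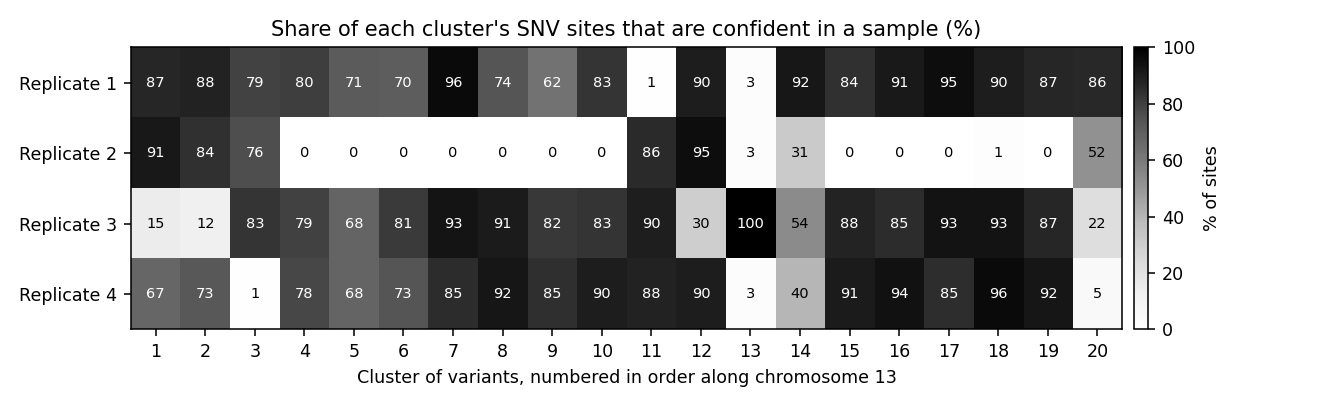
Each cell gives the percentage of the cluster's SNV sites that were confident in a replicate (rows) for each cluster in order along chromosome 13 (columns), with darker cells for higher percentages. Replicate 2 is at 1.24% or less from cluster 4 to cluster 10 and from cluster 15 to cluster 19, and the other replicates have at most 3 light cells under 20% each.

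Bins of equal length were used to set these patterns beside the rest of the genome. In 2 Mb bins with at least 10 confident SNVs, called dense, chromosome 13 had 28 of 61 in replicate 1 (background over all chromosomes 21.5%), 11 in replicate 2 (20.2%), 28 in replicate 3 (20.6%) and 26 in replicate 4 (16.9%). Bins that were dense in every sample but replicate 2, with at most 2 SNVs in it, numbered 16 of 61 (26.2%, background 1.66%). The same pattern for replicates 1, 3 and 4 gave 1, 1 and 2 bins (background 0.604%, 1.66% and 1.28%), and bins dense in replicate 3 alone gave 1 (background 2.19%). Of the 22 bins of the genome dense in all but replicate 2, 16 thus lay on chromosome 13. Many of these bins are neighbours, so they are not independent.

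Differences in fraction range between samples were also frequent by this measure. Bins that were upper-range in 1 sample and lower-range in another numbered 12 of 61 (19.7%, background 6.94%). Bins that combined an upper-range sample, a lower-range sample and a sample with at most 2 SNVs numbered 10 (16.4%, background 2.26%). Bins dense in all 4 samples were less frequent than elsewhere, with 3 of 61 (4.92%, background 11.2%). Since the blocks of this chromosome were known when it was chosen, these shares describe it and test nothing.

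Among genes, sites were spread unevenly. Of 829 protein-coding genes, 279 (33.7%) held at least 1 site, against 24.3% over all chromosomes, and 75 (9.05%) held at least 10, against 5.92%. Gene bodies contained 2843 of the sites (76.6%). The 10 genes with most sites held 909 of them (24.5%), and all 10 lie in clusters 3, 4, 15, 18, 19 or 20. Long genes collect more sites and the captured exons of each gene were not known, so this order is not a rank by rate.

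Iqgap2, a scaffold protein of Rac1 and Cdc42 signalling, led with 151 sites (95627177 to 95892280). Replicates 1, 3 and 4 had 118, 139 and 137 of them, at medians of 0.480, 0.386 and 0.467, and replicate 2 had none. Ttc37, a component of the SKI complex that feeds RNA to the exosome, had 122 sites, with 93, 1, 108 and 110 in replicates 1 to 4. Sv2c, a synaptic vesicle protein, had 97 sites, with 91, 0, 79 and 88. These 3 genes repeat the pattern of clusters 15 and 19, with replicate 2 at or near 0.

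Mctp1 had 91 sites and Cmya5, a large muscle protein, had 86. In Cmya5 replicates 1, 3 and 4 had 84, 83 and 84 sites at medians of 0.454, 0.365 and 0.468, with 80 sites common to 3 samples, and replicate 2 had 1. 2210408I21Rik had 70 sites, with 62, 1, 57 and 62. Tmem267, with 77 sites, was the exception among the 10: its counts of 68, 41, 17 and 6 followed no cluster pattern of the rest, and its mapping quality was low as given above.

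**Figure D5:**
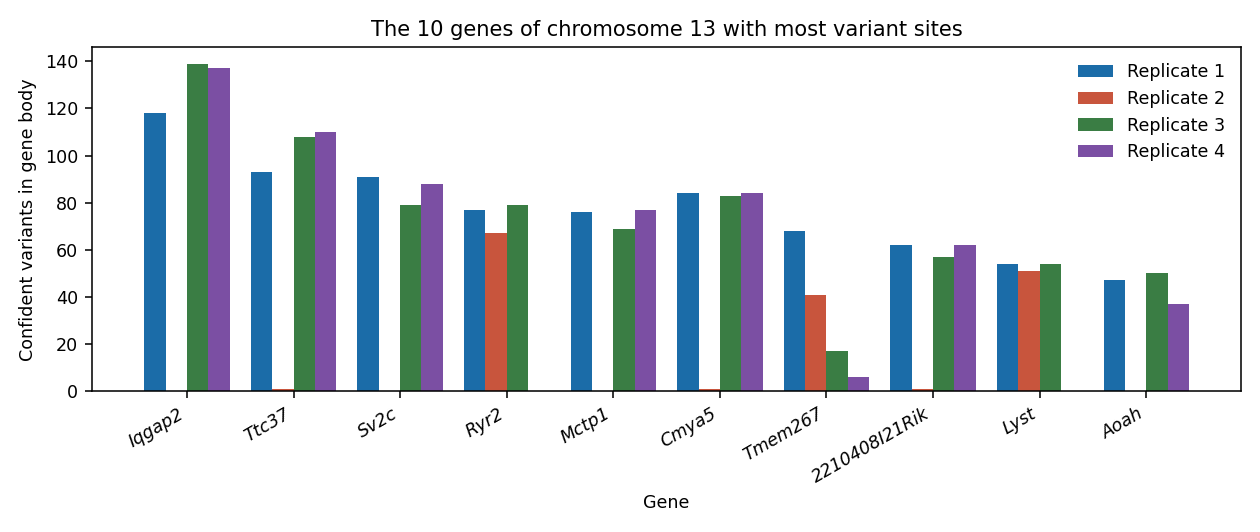
Bars give the number of confident variants in the gene body (vertical axis) in each replicate for the 10 protein-coding genes of chromosome 13 with most sites (horizontal axis). Replicate 2 has bars in Ryr2, Lyst and Tmem267 and at most 1 variant in the other 7, and replicate 4 has none in Ryr2 and Lyst.

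Genes of functions often studied in leukaemia were read from short lists, beside the 33.7% of all genes of the chromosome that held a site. Of 8 DNA repair genes, 4 held 61 sites (50%), nearly all in Msh3, a mismatch repair gene (30 sites), and Polk, a translesion DNA polymerase (29 sites). Msh3 had 21, 24 and 27 sites in replicates 1, 3 and 4, at medians of 0.432, 0.4 and 0.395, and 1 in replicate 2 at 0.231. Polk had 24, 25 and 28 at 0.472, 0.373 and 0.481, and none in replicate 2. Gtf2h2 and Xrcc4 had 1 indel site each. Msh3 sits inside cluster 18 and Polk inside cluster 19, and Polk followed the levels of its cluster. In Msh3 replicate 4 had the lowest median of replicates 1, 3 and 4, whereas in cluster 18 replicate 3 had it, at 0.379.

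Of 5 chromatin regulators, 3 held 11 sites (60%): Dek with 7, Jarid2, a cofactor of Polycomb repressive complex 2, with 3, and Nsd1, a histone methyltransferase, with 1 indel at 0.278 in replicate 4. Jarid2 lies outside the clusters. Its median fractions were 0.912, 0.984, 0.974 and 1 in replicates 1 to 4 over 2, 3, 1 and 2 sites, at median mapping qualities of 32.9, 24.5, 37.2 and 31.7. Just 1 of the 3 sites was confident in all 4 samples.

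Of 9 signalling genes, 3 held 6 sites (33.3%). Ripk1, a kinase of cell death signalling, had 1 SNV in cluster 6, with fractions of 1, 0.372 and 0.992 in replicates 1, 3 and 4, at depths of 122, 180 and 121. Rasgrf2, a RAS exchange factor, had 4 sites and Pik3r1, a subunit of PI3-kinase, had 1 indel at a depth of 10. Of 4 blood cell regulators, Mef2c, a myeloid and lymphoid transcription factor, had 4 sites at medians of 0.489, 0.364 and 0.440 in replicates 1, 3 and 4, and Gadd45g had 1 indel at 0.208 in replicate 3. These lists are short and their shares rest on 2 to 4 genes.

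For the large gene families the shares of members with a site stand beside the same 33.7%. Olfactory receptors had 7 of 13 genes (53.8%) with 26 sites, and vomeronasal type 1 receptors 5 of 36 (13.9%) with 16 sites. Prolactins had 5 of 26 (19.2%) with 6 sites, and zinc finger genes named Zfp 3 of 37 (8.11%) with 5 sites. The Naip genes, sensors of bacterial flagellin and secretion systems, had 2 of 4 (50%) with 5 sites. None of the 10 cathepsin genes held a site. Vomeronasal and olfactory receptor sites repeated cluster 4: none in replicate 2, none upper-range in replicates 1 and 3, and 14 of 14 and 21 of 26 upper-range in replicate 4.

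Substitution type and the ratio of indels to SNVs were not used to choose the sites and were compared with the other autosomes of the same samples. Transitions (C-to-T and T-to-C with their complements) made up 68.8%, 66.8%, 71.2% and 70.9% of the SNVs in replicates 1 to 4, and 69.2%, 69.6%, 70.8% and 69.0% on the other autosomes. The mean difference was -0.220 percentage points ± 1.96 (SD, n = 4), higher in 2 samples and lower in 2, which was within the spread of the samples (p = 0.75, two-sided, exact permutation of signs). Indels per 100 SNVs were 9.67, 17.2, 10.1 and 11.5, against 10.4, 11.5, 11.5 and 13.5. Their mean difference was 0.389 ± 3.56 (SD, n = 4), higher in replicate 2 and lower in the other 3 (p = 1, two-sided, exact permutation of signs). With 4 samples the smallest p comes from 2 of 16 sign assignments, so neither comparison could pass 0.05. Without replicate 2 the mean differences were 0.629 and -1.37. Without calls within 100 bases of another call of the sample, the transition difference was -3.51 points, lower in all 4 samples, which gives the smallest p that the exact permutation allows, and the indel difference was -2.58.

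Outside the 20 clusters 152 sites remained, from 48 in replicate 2 to 97 in replicate 3. Among those confident in all 4 samples were SNVs that did not follow the clusters. The SNV A73328436G, in the start window of Ndufs6, a subunit of mitochondrial complex I, had fractions of 1, 0.979, 0.982 and 0.962. Both SNVs at 108048406 and 108048411 were lower-range in all 4 samples, from 0.412 to 0.492. They lie close enough to share reads and count as 1 observation. Indels at 108048422, 108048961 and 108048982 were also confident in all 4 samples, at fractions from 0.376 to 0.479. Here replicate 2 carried the same alleles as the others, unlike in most of the clusters.

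Calls with 10 or 11 reads in the shallower of both callers numbered 376 over the 4 samples, beside 368 just under the minimum at 8 or 9. Calls with a quality of 20 to 40 numbered 138, and 99 that met the other limits were under 20. No member had a fraction under 0.2 in either caller, so the minimum of 0.1 removed nothing.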

How the data were processed

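Whole-exome DNA of 4 samples was captured with Agilent SureSelect mouse probes, per the labels' protocols, and sequenced on a BGISEQ500 instrument, per the series' design text. The authors deposited, for each sample, a SpeedSeq variant list and VarScan2 tables of SNVs and indels. The SpeedSeq lists were made with freeBayes 0.9.21 against mm10, per the file headers, and their quality column is a Phred-scaled score that the authors' caller wrote, as deposited. Other deposited fields hold whole read numbers and a mean mapping quality. The build names mm10 and GRCm38 also stand in the submitters' processing notes. No source used here names the aligner, says how duplicate reads were treated or gives a version for VarScan2. The VarScan2 tables held no call under 8 reads, 3 variant reads or 20% variant reads.

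Multi-base substitutions in the SpeedSeq lists were first split into single-base SNVs. Where the same base change stood in several entries, the entry with most variant reads was kept, so its fraction can count only part of them. Sites were then matched between both callers by position and alleles and kept as the report states. Allele fractions are from SpeedSeq, and medians by range on whole chromosomes used SNVs at a depth of at least 30. Changes of level within a block were found with a running median over 11 SNVs. Genes are protein-coding gene bodies of the RefSeq table for GRCm38.p6, and start windows reach from 250 bases before to 50 bases after a start. Precision at a site is set by its depth, and binomial intervals cover counting error only. Both comparisons with other autosomes used an exact permutation of signs over samples. Python 3.11.15, pandas 2.3.3, numpy 2.4.6, scipy 1.17.1 and matplotlib 3.10.9 were used, and the search for changes of level was tested on simulated data.

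The region, the gene lists and the upper-range limit were chosen with earlier results of these data known, and the clusters and bin patterns after the values had been seen. Genes named are the 10 with most sites, the 5 with most per kb among those with at least 10 sites, list genes with a site (up to 6 a list), genes at block edges and the leading genes of each cluster. Lists covered chromatin regulators, DNA repair, signalling, blood cell regulators, histones, prolactins, serpins, vomeronasal and olfactory receptors, zinc fingers, Naip genes, cathepsins and T-cell receptor gamma, the last of which held 0 protein-coding genes in the table. Alternatives covered the callers, depth, quality, closely spaced calls, block settings, the upper-range limit and leaving out each sample.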

Additional observations from a re-analysis of the deposited data

Results flagged for a closer look

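In 5 of 10 quantities compared over the 4 samples, 1 sample lay far from the rest, with a gap to the nearest that took up most of the whole range. The sites were chosen on these values, so this is a description and no test. Chance picks out about 1 in 20 groups of 4 this way, and the 5 quantities share their variants and are not independent. In 4 of them the sample was replicate 2. It had 714 SNVs where the others had 2308 to 2597, and 123 indels where the highest had 266. Its blocks spanned 10.6 Mb against 43.7 to 46.3 Mb, and 107 of its sites were confident in no other sample against 213 to 226. That last count goes with a smaller total, 837 sites against 2574 to 2848, and is not low as a share of the sites. In the other quantity it was replicate 3, whose lower-range SNVs had a median fraction of 0.378 against 0.453 to 0.457. The value of replicate 3 on the other autosomes was 0.376.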

How the results depend on the processing

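Calls from VarScan2 alone gave a mean of 353 indels per sample, 148 SNVs in all 4 samples and an indel difference of -1.03 per 100 SNVs (exact permutation p = 0.75). A depth minimum of 20 gave a transition difference of 0.621 points (exact permutation p = 0.5). Without calls within 100 bases of another, the means fell to 679.5 SNVs and 120.75 indels, the indel difference was -2.58 (exact permutation p = 0.5) and the transition difference moved from -0.220 to -3.51, lower in all 4 samples. Blocks joined over gaps of up to 2 Mb and 0.5 Mb spanned means of 54.1 and 20.9 Mb, against 36.1 Mb. Counting sites listed at any quality gave 179 SNVs in all samples. Leaving out 1 sample gave 180 to 1648 SNVs shared by the rest, the highest without replicate 2 and, without replicates 1, 3 and 4, 180, 216 and 311. It gave means of 1842 to 2469 SNVs, 209 to 257 indels, 32.7 to 44.6 Mb of blocks and 17.7% to 32.5% upper-range SNVs, transition differences from -0.931 to 0.629 and indel differences from -1.37 to 1.18. The cause of these changes was not tested beyond the sites or samples each setting leaves out.

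Chosen after seeing the data, other limits gave 13 to 18 bins dense in all but replicate 2, and gaps of 1 Mb and 0.25 Mb gave 12 and 31 clusters. Site counts of the 10 leading genes stayed within 1.5 times with SpeedSeq alone, while Tmem267 went from 77 to 182 with VarScan2 alone and to 32 at a depth minimum of 20. No paired analysis was possible because all 4 samples form 1 group. Without normal tissue, variant lists cannot separate inherited from acquired variants, and exome capture limits edges to captured bases.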
